A study of Mus musculus with 4 samples.

Results

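A group of 5 microRNAs (miRNAs) of mesenchyme and smooth muscle was followed in small RNA from the embryonic mouse forebrain: mmu-miR-199a-5p, mmu-miR-199b-5p and mmu-miR-214-5p, and mmu-miR-143-5p and mmu-miR-145a-5p, named without the mouse prefix from here on. They were chosen by name, as miRNAs typical of head mesenchyme and vessel walls rather than of the neural lineage in which Dicer was deleted. All 5 had a row among the 1059 mature miRNAs counted, and all 5 were among the 274 that reached 10 counts in at least 2 libraries and were tested. The libraries came from the rostral-most telencephalic primordium of E11.5 embryos, 2 from Rx-Dicer mutants (RxCre-DicerF/F) and 2 from controls, which the sample labels call WT and the protocol calls DicerF/F. Both genotypes thus carry floxed Dicer alleles by the protocol, and the mutants also carry Cre under regulatory sequences of Rx (Rax), a gene of the early forebrain and eye field. The Cre line was kept on a CD1 background and the floxed line on C57BL/6. According to the study, recombination at this age is strongest in the rostral and ventral telencephalon and weaker in the neocortex. How many embryos went into a library is not given in the sources used here. If the libraries of a genotype are not separate embryos, the p-values measure technical spread only.

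miRNAs are cut from hairpin precursors by Dicer and repress mRNAs that pair with their seed, bases 2 to 8 of the mature strand. The miR-199a-2 and miR-214 hairpins are processed from a shared non-coding transcript, Dnm3os, which is known from mesenchyme and skeletal tissue. miR-143 and miR-145a are likewise made from a shared primary transcript and are known as regulators of the contractile state of smooth muscle cells and pericytes. The mesenchyme around the forebrain and the mural cells of its vessels arise from neural crest and mesoderm, so their miRNAs can enter a dissection of the telencephalon.

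The mature sequences show why the miR-199 members have to be read together. RefSeq sequences (GRCm38.p6) were matched for miR-199a-5p and miR-214-5p, which is 2 of the 5 members. miR-199b-5p, miR-143-5p and miR-145a-5p are named only. The seed stands in capitals, and the 3p arms of the same hairpins are shown because those of miR-199a and miR-199b are the same sequence.
miR-199a-5p: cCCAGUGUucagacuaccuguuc
miR-214-5p: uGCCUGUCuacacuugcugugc
miR-199a-3p: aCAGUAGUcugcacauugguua
miR-199b-3p: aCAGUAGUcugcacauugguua
miR-214-3p: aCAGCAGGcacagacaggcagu
Among the mature miRNAs with an entry in the RefSeq table, no other shared the seed of miR-199a-5p or of miR-214-5p. miR-199a-5p is encoded by 2 hairpins that both hold it without a mismatch, Mir199a-2 and Mir199a-1, so their rows cannot be told apart, and the largest difference between them was 2 counts in a library. The Mir199b hairpin holds a stretch that differs from miR-199a-5p by a single base (C10U, counted from the 5′ end of miR-199a-5p). That base lies outside bases 2 to 8, so this stretch holds the same seed. How many reads were counted on both miR-199a-5p and miR-199b-5p was not measured, and values of miR-199b-5p are uncertain to that extent. The 3p rows of miR-199a, miR-199b, miR-214 and miR-145a were not analysed here.

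In the GENCODE M21 annotation (GRCm38), Mir199a-2 lies on chromosome 1 from 162217814 to 162217923 and Mir214 from 162223368 to 162223477, 5444 bases apart. Both overlap an exon of Dnm3os and lie within an intron of Dnm3, which is transcribed from the opposite strand. Mir199a-1 (chromosome 9, 21496495 to 21496564) and Mir199b (chromosome 2, 32318460 to 32318569) lie within introns of Dnm2 and Dnm1, also on the opposite strand. The 3 miR-199 genes thus sit antisense to 3 genes of the dynamin family, which pinch off endocytic vesicles. Mir143 and Mir145a are 1301 bases apart on chromosome 18.

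The libraries held 516517 to 651031 counts in Rx-Dicer mutants and 1133553 to 1299067 in controls. A single neural miRNA, miR-9-5p, took 28.2% to 42.6% of the counts. CPM here divides the counts of a miRNA by a library total that edgeR's TMM method has corrected for a few dominant miRNAs. Dicer mRNA is not measured in small RNA libraries, so the genotype labels could not be checked on it.

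miR-199a-5p was by far the most abundant of the group. Mutant library 1 had 7936 of its counts and mutant library 2 had 5921, against 4735 in control library 1 and 9027 in control library 2. As scaled CPM these were 10431 and 10096 in mutants and 3935 and 9787 in controls. The mutant libraries lay close together, control library 2 lay just below them, and control library 1 stood far below the other 3. By mean level miR-199a-5p ranked 21st in mutants and 30th in controls among the 274 miRNAs tested.

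miR-199b-5p, made from a separate gene, had 747 and 703 scaled CPM in mutants and 236 and 594 in controls. Its order of libraries was that of miR-199a-5p, with control library 1 lowest. miR-214-5p, the 5p arm of the hairpin that follows miR-199a-2 on Dnm3os, had 300 and 266 in mutants and 106 and 292 in controls. For this miRNA the genotypes overlapped, since control library 2 lay between the mutant libraries. miR-145a-5p had 386 and 261 in mutants and 149 and 366 in controls, so that control library 2 again lay between the mutant libraries. miR-143-5p was scarce, with 40 and 13 counts in mutants and 21 and 30 in controls, or 52.6 and 22.2 scaled CPM in mutants and 17.5 and 32.5 in controls. The mutant libraries were the highest and the third of the 4 for miR-143-5p, and control library 1 was again lowest.

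**Figure D1:**
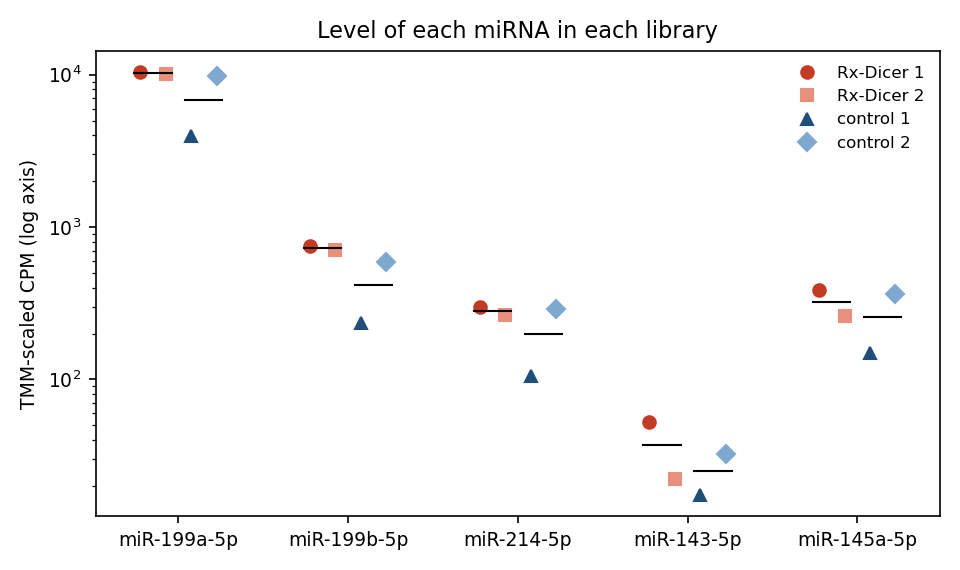
TMM-scaled CPM (log axis) of the 5 miRNAs, 1 symbol per library, with a line at the mean of each genotype (n = 2 libraries). For each miRNA the lowest symbol is control library 1, for example 3935 against 9787 to 10431 in the other libraries for miR-199a-5p.

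The order of levels was the same in both genotypes: miR-199a-5p, miR-199b-5p, miR-145a-5p, miR-214-5p and miR-143-5p. In mutants the mean of miR-199a-5p was 14.2 times that of miR-199b-5p, and in controls 16.5 times. The ranges of miR-145a-5p and miR-214-5p overlapped in both genotypes, and in controls those of miR-199b-5p and miR-145a-5p did too. Within a library, which both miRNAs share, miR-199b-5p had 1.93 and 2.69 times the counts of miR-145a-5p in mutants and 1.59 and 1.62 times in controls, so their order was the same in all 4. miR-145a-5p had 1.29 and 0.981 times the counts of miR-214-5p in mutants and 1.41 and 1.26 times in controls, so it was the higher in 3 libraries and within counting error in Rx-Dicer library 2. A read covers a whole mature miRNA, so the counts were not divided by length, and differences in how well each sequence is ligated into a library were not measured.

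No member was called different between the genotypes (edgeR's quasi-likelihood test, adjusted p under 0.05), where 2.55% of the 274 miRNAs were called, 7 lower and 0 higher. Without adjustment, 0 of the 5 members had a p under 0.05 in edgeR, where 3 of the 274 miRNAs were higher and 23 lower. With DESeq2's Wald test 0 members passed after adjustment, 1 did without it (miR-199b-5p, whose adjusted p was 0.573). Of all 274 the same test had 5 higher and 18 lower without adjustment, and 0 higher and 11 lower with it. The fitted values were nevertheless above 0 for all 5, beside 54.4% of all tested miRNAs. Their median log2 fold change, Rx-Dicer minus control, was 0.58, beside 0.04 for the 274.

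For miR-199a-5p the mutants averaged 10264 ± 237 scaled CPM and the controls 6861 ± 4138 (± SD over 2 libraries here and below), a log2 difference of 0.58 ± 0.41 (SE; edgeR adjusted p = 0.638). This is 1.50-fold, with a 95% interval from 0.767 to 2.92. miR-199b-5p had the highest value of the group, averaging 725 ± 31.2 scaled CPM against 415 ± 253 in controls, a log2 difference of 0.81 ± 0.41 (SE; edgeR adjusted p = 0.526). Its interval ran from 0.901-fold to 3.40-fold. The value ranked 10th from the highest among the 274 miRNAs, and that of miR-199a-5p ranked 23rd.

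For miR-214-5p the mutants averaged 283 ± 23.8 scaled CPM and the controls 198.6 ± 132, a log2 difference of 0.52 ± 0.46 (SE; edgeR adjusted p = 0.722) with an interval from 0.683-fold to 2.99-fold. miR-145a-5p averaged 324 ± 88.8 in mutants against 258 ± 154 in controls, a log2 difference of 0.34 ± 0.44 (SE; edgeR adjusted p = 0.856) with an interval from 0.619-fold to 2.57-fold. miR-143-5p averaged 37.4 ± 21.5 in mutants against 25.0 ± 10.7 in controls, a log2 difference of 0.61 ± 0.54 (SE; edgeR adjusted p = 0.722) with an interval from 0.643-fold to 3.65-fold. Each of the 5 intervals includes no change and reaches at least 2.57-fold, so these libraries do not show that the levels are equal.

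In both miR-199a-5p and miR-199b-5p each mutant library lay above each control library, which held for 17.9% of the 274 miRNAs, while 24.5% lay lower in both mutant libraries and none of the members did. This depended on the scaling. With plain totals, or with totals that leave out miR-9-5p, miR-214-5p joined them, but then 48.5% and 36.1% of all miRNAs lay higher in both mutant libraries. With libraries scaled to equal counts of 3 red-cell miRNAs, 0 of the 5 members did, beside 2.19% of all.

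The size of the difference, and for 2 members its direction, rested on control library 1. Without it the log2 fold changes were 0.11 for miR-199a-5p, 0.32 for miR-199b-5p, −0.0052 for miR-214-5p, 0.26 for miR-143-5p and −0.14 for miR-145a-5p. Without control library 2 they were 1.38, 1.62, 1.42, 1.11 and 1.12 in the same order. No member passed the threshold in either fit, where the adjusted p of miR-199a-5p was 0.856 and 0.115 (edgeR, the lone control assumed to vary like the mutants). miR-143-5p also changed sign without Rx-Dicer library 1, to −0.15.

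**Figure D2:**
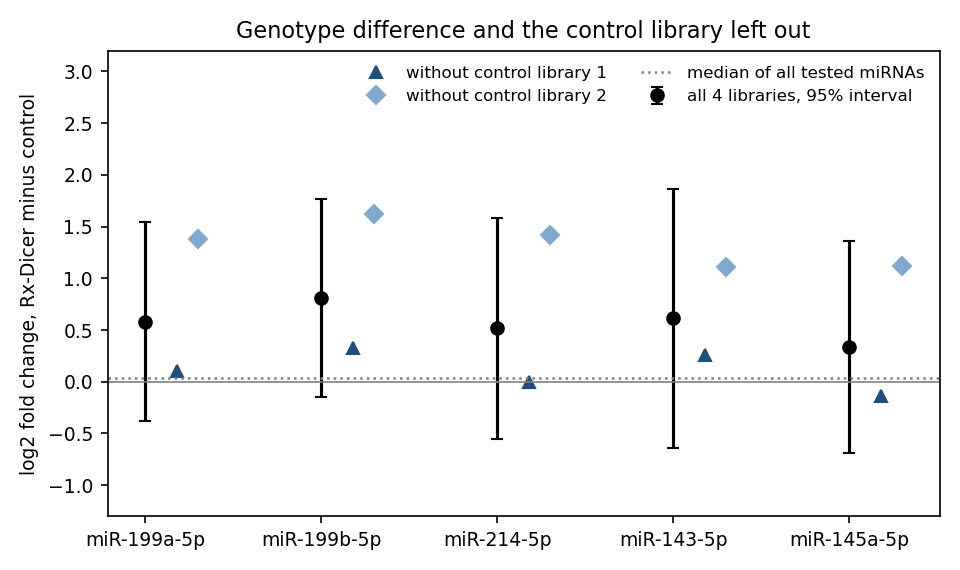
Log2 fold change, Rx-Dicer minus control, of the 5 miRNAs with all 4 libraries (black, with the 95% interval from edgeR), without control library 1 (triangles) and without control library 2 (diamonds), beside the median of all 274 tested miRNAs (dotted, 0.04). The triangles lie between −0.14 and 0.32 and the diamonds between 1.11 and 1.62.

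For each of the 5 members the ratio between the 2 control libraries exceeded the fitted genotype fold, which was 1.26 to 1.75. A ratio of 2 single libraries spreads more than a fold between group means, so these are unlike measures. For miR-143-5p the counting interval of the ratio includes its genotype fold of 1.53. Control library 2 had 2.49 times the scaled CPM of control library 1 for miR-199a-5p (exact 95% interval for counting error 2.40 to 2.58). The ratio was 2.52 for miR-199b-5p (2.18 to 2.92), 2.76 for miR-214-5p (2.23 to 3.44), 2.46 for miR-145a-5p (2.05 to 2.97) and 1.86 for miR-143-5p (1.03 to 3.42). A value of at least 2 was found for 4 of the 5 members and for 6.2% of the 274 miRNAs, whose median was 1.00. The 4 members ranked 3rd, 8th, 9th and 10th from the highest. These 4 members were thus near the upper end of what separated the controls, and outside counting error.

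Between the mutant libraries the miR-199 and miR-214 members hardly differed. Library 1 had 1.03 times the level of library 2 for miR-199a-5p (0.999 to 1.07), 1.06 times for miR-199b-5p (0.935 to 1.21) and 1.13 times for miR-214-5p (0.915 to 1.39). The miR-143 and miR-145a members differed more, 1.48 times for miR-145a-5p (1.21 to 1.81) and 2.37 times for miR-143-5p (1.24 to 4.83). Over all 274 miRNAs the median size of the difference, taken in either direction, was 1.22-fold between mutants and 1.34-fold between controls.

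**Figure D3:**
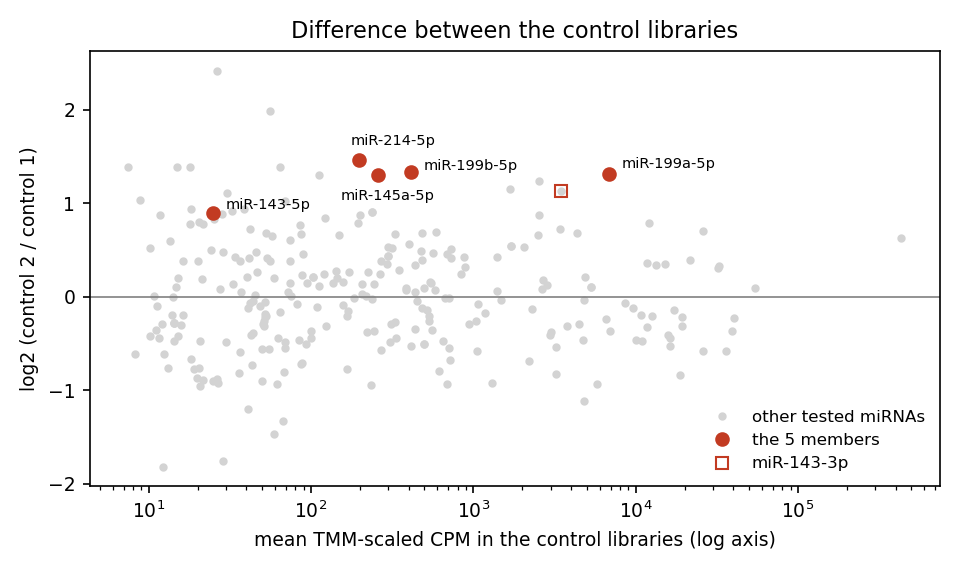
Log2 ratio of control library 2 to control library 1 against the mean scaled CPM of the controls (log axis) for the 274 tested miRNAs (grey), with the 5 members filled and miR-143-3p as an open square. The members lie near the upper edge at low and at high counts, from 0.90 for miR-143-5p to 1.47 for miR-214-5p.

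A plain share of a library amounts to scaling by total counts. Under that scaling the median log2 fold change of all 274 miRNAs was 0.44, and 48.5% of them lay higher in both mutant libraries. As such shares, the 5 members together took 1.39% of the counts in Rx-Dicer library 1 (95% Wilson interval 1.36 to 1.42). In Rx-Dicer library 2 they took 1.29% (1.26 to 1.32). They took 0.412% in control library 1 (0.401 to 0.423) and 0.901% in control library 2 (0.884 to 0.918). These intervals cover counting error only, since the sources name no molecular identifiers that would separate PCR copies. miR-199a-5p made up 87.5% to 89.0% of this sum in each of the 4 libraries, miR-199b-5p 5.31% to 6.27%, miR-145a-5p 2.30% to 3.35%, miR-214-5p 2.34% to 2.63% and miR-143-5p 0.195% to 0.441%. The shares of the miR-199 and miR-214 members in the sum thus varied little, while those of miR-145a-5p and miR-143-5p were lowest in Rx-Dicer library 2, and the group's share of the library ranged from 0.412% to 1.39%. In bulk tissue, fewer mesenchymal cells and less of each miRNA per cell cannot be told apart.

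Ratios of counts within a library do not depend on scaling. miR-214-5p, which shares Dnm3os with miR-199a-2, had 2.87 and 2.63 counts per 100 of miR-199a-5p in mutants and 2.68 and 2.98 in controls, and the highest ratio was 1.13 times the lowest. The counting intervals of all 4 libraries overlapped. miR-199b-5p had 7.16 and 6.96 counts per 100 of miR-199a-5p in mutants and 6.00 and 6.07 in controls, a 1.17-fold higher ratio in mutants (two-sided exact permutation test, p = 0.333 and 0.833 after adjustment over 5 ratios, where 0.333 is the lowest value that such small groups can give). Both mutant libraries lay above both controls, but the counting interval of control library 1 (5.30 to 6.76 per 100) overlapped that of Rx-Dicer library 2 (6.28 to 7.69).

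Within the pair of miR-143 and miR-145a, miR-143-5p had 13.6 and 8.50 counts per 100 of miR-145a-5p in mutants and 11.7 and 8.88 in controls, within counting error of each other. miR-145a-5p had 3.70, 3.78 and 3.74 counts per 100 of miR-199a-5p in Rx-Dicer library 1 and the controls, but 2.58 in Rx-Dicer library 2. That value stands apart, with a counting interval from 2.19 to 3.03 per 100 against 3.29 to 4.16 in Rx-Dicer library 1. miR-145a-5p thus kept a nearly constant proportion to miR-199a-5p in 3 libraries and was lower in the other.

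**Figure D4:**
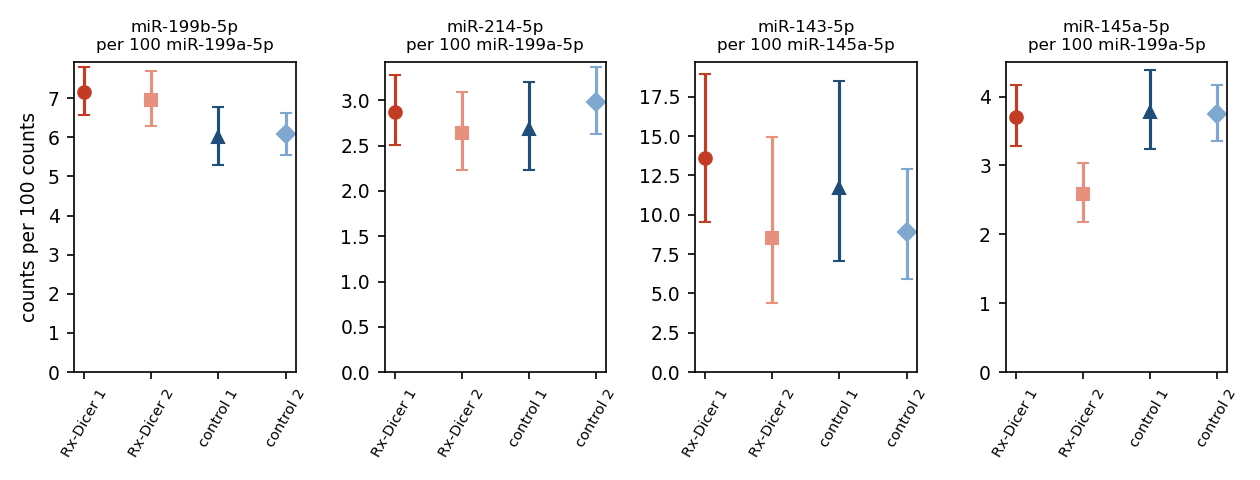
Counts of a miRNA per 100 counts of a partner in the same library, with exact 95% intervals for counting error, in 4 panels with axes that start at 0. The miR-214-5p to miR-199a-5p ratio is level (2.63 to 2.98), miR-199b-5p is at 6.96 to 7.16 in mutants and 6.00 to 6.07 in controls, and miR-145a-5p is at 2.58 in Rx-Dicer library 2 and at 3.70 to 3.78 elsewhere.

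The other arm of the miR-143 hairpin, miR-143-3p, is the main mature strand and was read much more often. It had 3250 and 2704 counts in mutants and 2603 and 4384 in controls, 81.3 and 208 times those of miR-143-5p in mutants and 124 and 146 times in controls. Its scaled CPM were 4272 and 4611 in mutants and 2163 and 4753 in controls, so that control library 1 was again lowest and the other 3 libraries lay close together. The log2 difference was 0.36 ± 0.38 (SE; edgeR adjusted p = 0.789).

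Likeness of profiles was measured as the root mean square difference of log2 scaled CPM, each miRNA centred on its mean over the 4 libraries, among miRNAs with at least 100 counts in each library. It is a description over 4 points that share libraries and depth. The nearest of 134 miRNAs to miR-199a-5p were miR-214-5p (0.072), miR-199b-5p (0.11) and miR-143-3p (0.15), and miR-145a-5p ranked 6th (0.23). The nearest to miR-145a-5p were miR-467b-5p and miR-467a-5p (0.15 each, with the same counts in every library) and then miR-214-5p (0.19).

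miRNAs of other tissues that the dissection could hold were set beside the members. None of their lists held a miRNA called in either direction, beside 2.55% of the 274. Each list had only 0 to 3 tested miRNAs, so the lack of a call says little about these tissues. The cartilage and connective tissue miRNAs miR-140-5p and miR-455-5p summed to 731 and 735 scaled CPM in mutants and 586 and 855 in controls, so they too were lowest in control library 1, with a narrower range than the members. The endothelial miR-126a-5p had 431 and 244 in mutants and 253 and 403 in controls. The red-cell list, miR-144-5p, miR-451a and miR-486a-5p, summed to 7595 and 8504 in mutants and 5737 and 6362 in controls, lowest in control library 1. Most of this sum was miR-486a-5p, at 5089 to 7373, and miR-451a was likewise lowest in control library 1. The scarce miR-144-5p was not, with 18.4 and 35.8 in mutants and 19.1 and 41.2 in controls. The 4 white-cell miRNAs summed to 471 to 492 in mutants and 475 to 573 in controls, highest in control library 1, where miR-155-5p made up 485 of the 573. The leukocyte miRNA miR-142a-5p ran the other way, with 98.6 and 106 in mutants and 59.0 and 90.0 in controls. It was lowest in control library 1 like the members. miR-223-5p, at 6 to 11 counts a library, had 14.5 and 15.3 in mutants and 6.65 and 6.51 in controls. miR-150-5p had 15.8 and 15.3 in mutants and 22.4 and 42.3 in controls. Neither miR-223-5p nor miR-150-5p was lowest in control library 1. Of the 7 epithelial miRNAs 4 had a count, and the list summed to 235 and 808 in mutants and 201 and 427 in controls.

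Of 8 skeletal and heart muscle miRNAs on the list 2 had a count, with sums of 10.8 to 22.3 scaled CPM over the 4 libraries, nearly all of it miR-499-5p. All 8 are 5p arms, and the usually more abundant 3p arms of miR-1a, miR-133 and miR-206 were not analysed here, so the list says little about how much muscle the tissue held. Of the smooth muscle miRNAs beside the members, miR-145b and miR-490-5p had 1 count between them. The neural list, which is nearly all miR-9-5p, summed to 241220 and 259448 in mutants and 340311 and 524418 in controls. This sum was lowest in the mutants, but between the controls it was lower in control library 1, as the members were. The other neural miRNAs were higher in control library 1 than in control library 2. These were miR-124-5p (359 against 297 scaled CPM), miR-128-1-5p (80.6 against 57.5) and miR-128-2-5p (18.3 against 7.59). The part that these tissues have in the differences above was not tested.

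**Figure D5:**
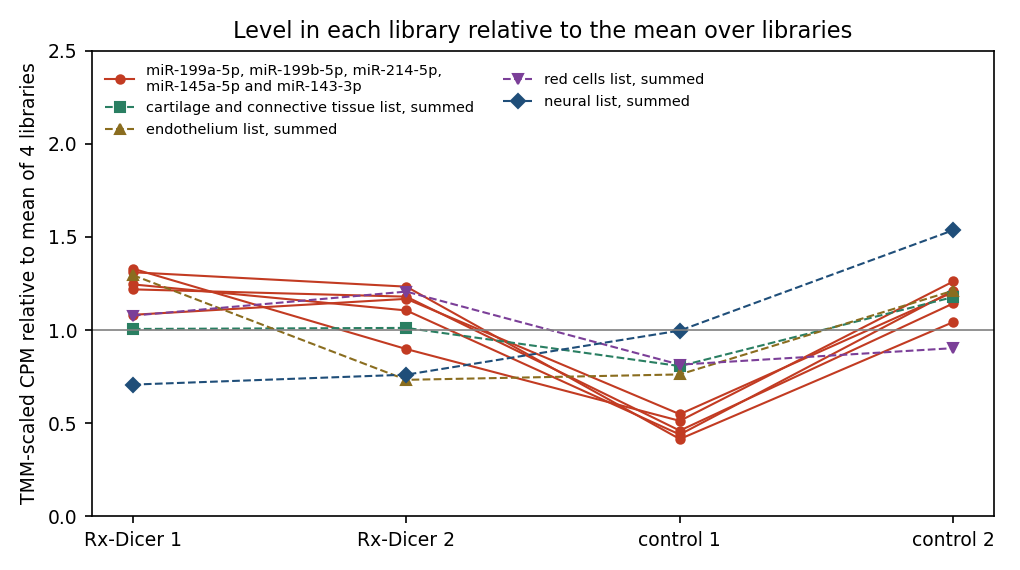
Scaled CPM in each library relative to the mean over the 4 libraries, for 4 members and miR-143-3p (red) and for the summed lists of other tissues (dashed). Lines only join the points of a miRNA or list. The red points drop in control library 1, where the cartilage and red-cell lists fall less and the neural list lies near its mean.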

How the data were processed

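Small RNA was sequenced by the authors with 75-base single-end reads, and reads on mature miRNAs were counted with miRDeep2 against mm10 and miRBase version 22. The deposited counts are raw whole numbers, 1 row for a mature miRNA and the hairpin it came from. The miRDeep2 version and its mismatch setting are not given in the sources used here, and reads of near-identical miRNAs may be counted more than once. Each library has 1211 rows, and the row with the highest total was kept for each of 1059 mature names.

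The 274 miRNAs that reached 10 counts in 2 or more libraries were tested for genotype alone with the quasi-likelihood test of edgeR 4.0.16 (with limma 3.58.1 in R 4.3.3) after TMM scaling. Benjamini-Hochberg adjustment covered all 274, and an adjusted p under 0.05 was called. Intervals of fold changes come from the quasi-likelihood statistic. DESeq2's Wald test (DESeq2 1.42.0), the study's tool, was an alternative, beside other scalings, count minimums, row choices, a replicate block and each library left out. The edgeR fit was tested on simulated data, with changes larger than those fitted for the members and no library set apart from its group. Its behaviour with smaller changes was not tried. Libraries of a genotype differed far beyond sampling noise, so none was deposited more than once. A floor of 3 counts corresponds to 0.000231% to 0.000581% of a library.

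The members and lists were chosen with earlier results of these data known. Besides the members, the text names fixed lists of tissue miRNAs, miRNAs with the seed of a member, and the 3 nearest profiles to miR-199a-5p and to miR-145a-5p. Exact intervals and permutation tests used scipy 1.17.1 in Python 3.11.15.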

Additional observations from a re-analysis of the deposited data

How the results depend on the processing

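miR-143-5p rests on 13 to 40 counts a library, which limits its precision. No alternative called a member. Without adjustment, edgeR on all 4 libraries gave 2 of the 5 members a p under 0.05 with total counts only. Of all tested miRNAs, 51 higher and 10 lower did so there. With totals without miR-9-5p 1 member did, beside 22 higher and 15 lower. With all precursor rows 1 member did, beside 5 higher and 33 lower rows. Of 54 fold changes of members under alternatives on all 4 libraries, 53 kept their direction, with adjusted p from 0.188 upwards, and that of miR-145a-5p turned to −0.031 with equal red-cell miRNAs. The median of all tested miRNAs moved to 0.44 with total counts only, 0.26 with totals without miR-9-5p, 0.14 with upper-quartile scaling, −0.37 with equal red-cell miRNAs and −0.14 with no count minimum, against 0.04. miR-143-5p could not be tested at a minimum of 100 counts. With each library left out, log2 fold changes ranged from 0.11 to 1.38 for miR-199a-5p, 0.32 to 1.62 for miR-199b-5p, −0.0052 to 1.42 for miR-214-5p, −0.15 to 1.11 for miR-143-5p and −0.14 to 1.12 for miR-145a-5p. The difference in summed share was 0.684 percentage points, 0.796 if miR-9-5p is taken out of the totals, 0.808 with summed precursor rows and 0.440 to 0.929 with each library left out. Summing precursor rows counts miR-199a-5p nearly 2 times over, since its rows differed by at most 2 counts in a library. The 0.808 is therefore not a difference in shares of reads. Of the log2 differences in count ratios, 3 of 5 changed sign with a library left out. These were miR-214-5p to miR-199a-5p (−0.12 to 0.037), miR-143-5p to miR-145a-5p (−0.26 to 0.41) and miR-143-3p to miR-143-5p (−0.73 to 0.63).

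The number of all miRNAs called lower, 7, was 4 with DESeq2's size factors, 3 with upper-quartile scaling and with totals without miR-9-5p, 0 with total counts only, 14 with no count minimum, 11 with all precursor rows, with DESeq2's Wald test and with equal red-cell miRNAs, and 0 to 6 with each library left out. The cause was not tested. A replicate block in edgeR called 0 lower (20 lower and 4 higher before adjustment), and the members lay between 0.44 and 0.95. Nothing says that equal numbers mark related embryos, and the deviations of same-numbered libraries had a correlation of 0.085 across 274 miRNAs.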
